A study of Arabidopsis thaliana with 22 samples.

Results

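The genes described here were those with almost no reads in wild-type Arabidopsis thaliana leaves and a clear signal in leaves of a line overexpressing the transcription factor AITF1 (OXAITF1). A gene was taken when its raw counts summed to at most 4 over both wild-type (WT) leaf libraries and reached at least 20 in each OXAITF1 leaf library. Of 23318 genes in the leaf table, 104 met these limits. The loci THA1, AOX1D and GSTU9 met them too but were left out of the set, which leaves 101 genes. The genes were thus chosen by the leaf counts themselves, so leaf values are given as a description and no leaf test is applied to them. Seedling counts did not enter the rule, and the behaviour of the genes in seedlings was tested. The set was chosen with earlier results of these data known.

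The leaf groups were OXAITF1 and WT (Col-0) plants, both 3 weeks old, with 2 libraries each. The seedling groups were the double mutant aitf1-1asr3-1 and WT, labelled as 10 days old and sampled at 0, 1 and 3 h, each time point of a genotype having 3 libraries. The labels leave the event that defines 0 h unnamed, give no promoter or number of lines for OXAITF1 and do not say whether replicates were separate plants or cultures. P-values therefore measure the spread between libraries only, and this may be technical. The growth text speaks of 14-day-old seedlings and the extraction text of leaves for every sample. The series title places the work in the study of plant defence and of paired trihelix factors.

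Trihelix factors are plant DNA-binding proteins, named for a helical domain, that bind GT-rich promoter elements and act in light, development and immune responses. Plant immunity starts at the cell surface, where receptor kinases sense microbial patterns and switch on early genes within the first hours. A second programme, built on salicylic acid and N-hydroxypipecolic acid, spreads resistance through the plant, and the flavin monooxygenase FMO1 is the enzyme that makes N-hydroxypipecolic acid. A bulk leaf library averages over cells, so more cells of a type cannot be told apart from more RNA per cell.

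Of the 101 genes, 96 were annotated as protein coding, 3 as pseudogenes and 2 as non-coding RNA, and 46 carried a symbol. In WT leaves 20 of them had 0 counts in both libraries, and 15, 24, 21 and 21 had a sum of 1, 2, 3 and 4. In OXAITF1 leaves the counts ran between 20 and 1413 per library. Summed over the set, the level was 454 and 451 CPM (the count relative to library size, after TMM scaling) in the OXAITF1 libraries, against 8.29 and 6.96 CPM in the WT libraries. The mean OXAITF1 level per gene ran between 0.992 and 38.5 CPM with a median of 2.33 CPM, so most of the set remained at a low level. Per kb of exon, which takes annotated length into account, the OXAITF1 level had a median of 1.83 CPM per kb and a highest value of 36.4.

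Leaf libraries held between 15.3 and 19.4 M counts and seedling libraries between 17.1 and 21.6 M. In leaves 1 count was worth 0.0460 to 0.0747 CPM. For the 20 genes at 0 in WT, a floor of 3 counts over both WT libraries gave OXAITF1 levels at least 9.78-fold to at least 165-fold higher, with a median bound of 19.3. For the other 81, the ratio of OXAITF1 to WT ran between 6.85 and 1055 with a median of 30. Floors and intervals cover counting error only. The median log2 difference of all tested leaf genes was 0.05 after TMM scaling, 0.02 with RLE size factors and 0.46 with library totals alone. The labels were checked on 2 trihelix genes. AT3G11100 had 60801 and 83496 counts in OXAITF1 leaves, against 193 and 205 in WT leaves. The reference names no AITF1 locus, so its identity with AITF1 was not established here. Double mutant seedlings at 0 h had less AT3G11100 than WT, with a log2 difference of -0.77 (SE 0.08, adjusted p = 7.71e-05). For ASR3 (AT2G33550) it was -0.71 (SE 0.13, adjusted p = 0.0172). Both genes therefore still gave reads in the double mutant.

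Genes on either side of the limits differed by few counts. NAC048, a NAC domain transcription factor, stood just inside with 20 and 22 counts in OXAITF1 leaves, against 3 and 1 in WT leaves. ALD1, which makes the precursor of pipecolic acid upstream of FMO1, had 682 and 85 counts in OXAITF1 leaves, against 0 and 5 in WT leaves, and missed the WT limit by 1 count. WRKY71 had 20 and 18 counts in OXAITF1 leaves, against 0 and 1 in WT leaves, and missed the OXAITF1 limit. 

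The sequences of 5 loci are shown. The non-coding member MIR172a encodes the precursor of a microRNA that silences APETALA2-like transcription factors in flowering and organ identity. Its mature form is given as in RefSeq (TAIR10.1, chr2:11942918-11942938, minus strand), with the seed, bases 2 to 8, in capitals.
ath-miR172a: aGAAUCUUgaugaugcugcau

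Promoters follow for the protein-coding members with the highest and the lowest called changes in WT seedlings after 1 h, a pair of each. They are the 250 bases before the annotated gene start, 5′ to 3′ on the gene's strand, from RefSeq TAIR10.1. Capitals mark the W-box core TTGAC, bound by WRKY factors, and the G-box CACGTG, bound by bHLH and bZIP factors, on either strand, so that GTCAA is a W-box core read on the other strand. PHT3;2 (chr3:18116570-18116819, minus strand) and AT5G25450 (chr5:8856667-8856916, plus strand) rose at 1 h. AT5G39520 (chr5:15825567-15825816, minus strand) and GLYI7 (chr1:30150647-30150896, plus strand) fell.
PHT3;2: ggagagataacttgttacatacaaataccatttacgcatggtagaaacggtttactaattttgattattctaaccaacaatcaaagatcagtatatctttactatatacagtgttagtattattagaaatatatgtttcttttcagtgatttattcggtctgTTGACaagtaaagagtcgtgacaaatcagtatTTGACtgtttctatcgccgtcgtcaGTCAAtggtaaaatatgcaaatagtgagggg
AT5G25450: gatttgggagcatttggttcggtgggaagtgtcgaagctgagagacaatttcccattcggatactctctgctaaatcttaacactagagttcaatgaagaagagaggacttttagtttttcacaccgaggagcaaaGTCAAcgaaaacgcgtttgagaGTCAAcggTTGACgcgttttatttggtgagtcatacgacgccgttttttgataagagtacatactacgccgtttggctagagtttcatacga
AT5G39520: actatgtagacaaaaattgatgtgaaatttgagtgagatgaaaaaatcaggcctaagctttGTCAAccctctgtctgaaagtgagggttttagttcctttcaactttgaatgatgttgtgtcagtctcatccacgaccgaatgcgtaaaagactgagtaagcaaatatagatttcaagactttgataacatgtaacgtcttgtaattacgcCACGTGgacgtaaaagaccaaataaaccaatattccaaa
GLYI7: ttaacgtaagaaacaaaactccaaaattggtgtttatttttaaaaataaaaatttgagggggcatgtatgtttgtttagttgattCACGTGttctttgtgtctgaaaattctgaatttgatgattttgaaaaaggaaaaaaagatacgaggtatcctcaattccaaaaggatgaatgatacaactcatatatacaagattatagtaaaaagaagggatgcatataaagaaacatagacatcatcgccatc

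Both promoters of rising genes held 3 W-box cores, the AT5G39520 promoter held 1, and the GLYI7 promoter held 0. Both promoters of falling genes held 1 G-box, and neither promoter of a rising gene held one. Over the 96 protein-coding members, 54.2% of such windows held a W-box core, against 44.9% of 27443 protein-coding genes. The share was 61.5% among the 39 members that rose at 1 h in WT seedlings and 22.2% (2 windows) among the 9 protein-coding members that fell. Shares for all genes that rose or fell were not taken. A G-box stood in 11.5% of member windows, against 6.49% of all. It was in 3 of the 39 windows of members that rose and in 3 of the 9 windows of members that fell. The GT-box letters GGTTAA, of the kind that trihelix factors bind, were in 9.38% of member windows, against 14.6% of all, and in none of the 4 printed. The TATCCA element was in 16.7% of member windows, against 13.6% of all. The as-1 core TGACG, which overlaps the W-box core where the letters run TTGACG, was in 21.9%, against 18.6% of all. These shares describe letters in a short window, and say nothing on whether a factor was bound.

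The members with the highest OXAITF1 leaf levels came from unrelated families. AT2G33850, annotated as an E6-like protein, had 469 and 1180 counts in OXAITF1 leaves, against 3 and 1 in WT leaves, a ratio of 269 (95% counting interval 105 to 988). AT5G39520, a protein of unknown function, had 204 and 1413 counts in OXAITF1 leaves, against 1 and 0 in WT leaves. AT3G28510, annotated as a P-loop nucleoside triphosphate hydrolase, had 968 and 411 counts in OXAITF1 leaves, against 2 and 0 in WT leaves. In each of these 3 genes both OXAITF1 libraries were far above both WT libraries, and the OXAITF1 libraries differed from each other over 2-fold, with no common order. AT4G23680, a polyketide cyclase-like protein, had 525 and 306 counts in OXAITF1 leaves, against 1 and 2 in WT leaves, a ratio of 181 (61.6 to 878). The defensin-like AT3G59930 had 119 and 450 counts in OXAITF1 leaves, against 2 and 2 in WT leaves, a ratio of 92.8 (36.0 to 342). Per kb of exon the order changed, with AT5G39520 at 36.4, the short MIR172a precursor at 34.4 and AT2G33850 at 31.6 CPM per kb. The MIR172a value divides by an annotated length of 102 bases only, so its place among longer genes is not reliable. MIR172a had 82 and 66 counts in OXAITF1 leaves, against 0 and 3 in WT leaves, on a precursor transcript.

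**Figure D1:**
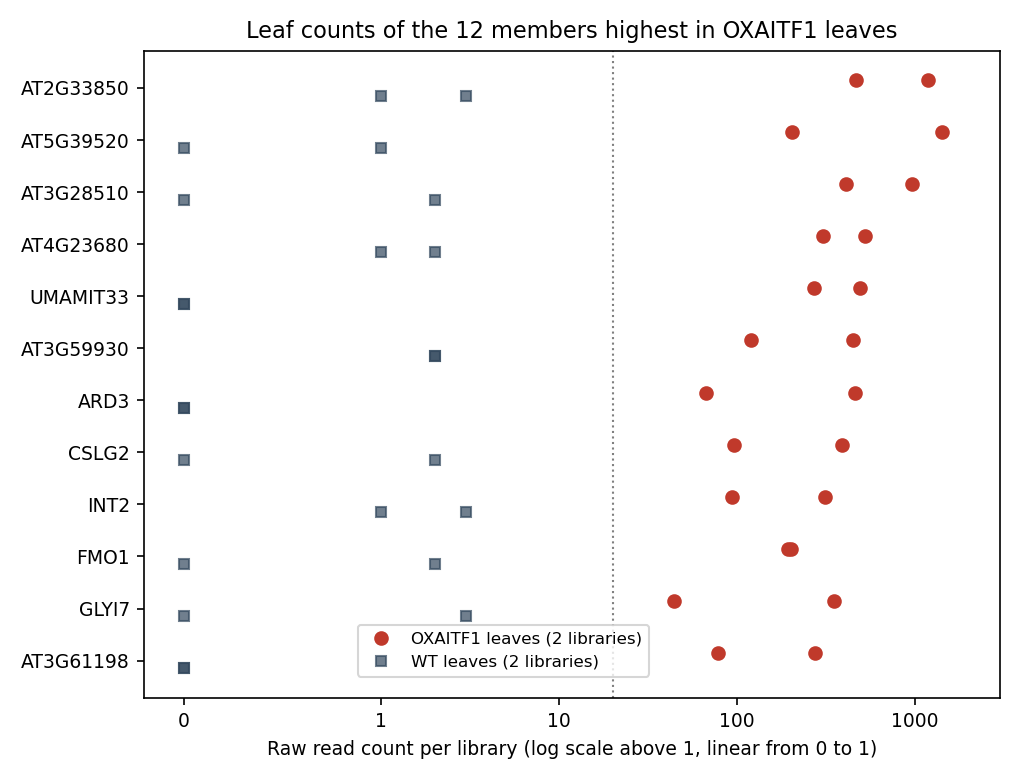
Raw read counts per library, on a scale that is linear up to 1 and logarithmic above it, for the 12 members with the highest mean CPM in OXAITF1 leaves. Circles are the 2 OXAITF1 libraries, squares the 2 WT libraries, and the dotted line is the limit of 20 counts. WT counts lie at 0 to 3, while OXAITF1 counts lie between 44 and 1413.

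Transporters formed a group of 8. UMAMIT33, of a family of amino acid transporters, had 270 and 489 counts in OXAITF1 leaves, against 0 and 0 in WT leaves, and was at least 165-fold higher. INT2, an inositol transporter, had 312 and 94 counts in OXAITF1 leaves, against 1 and 3 in WT leaves, a ratio of 66.2 (25.7 to 244). Others were the nitrate transporter NRT2.5, known for its role in nitrogen-starved plants, the amino acid permease AAP3, the mitochondrial phosphate carrier PHT3;2 and the glutamate receptor-like channel ATGLR1.2. These 4 had 30 to 85 counts per OXAITF1 library and 0 to 4 per WT library.

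The 12 oxidoreductases included FMO1, with 193 and 201 counts in OXAITF1 leaves, against 0 and 2 in WT leaves, a ratio of 128 (35.3 to 1065). ARD3, an acireductone dioxygenase of the methionine salvage cycle, had 461 and 67 counts in OXAITF1 leaves, against 0 and 0 in WT leaves, and was at least 115-fold higher. FMO1 was nearly equal in both OXAITF1 libraries, while ARD3 was 7.27-fold higher in replicate 1. YUC8, which makes auxin, had 85 and 136 counts in OXAITF1 leaves, against 2 and 0 in WT leaves. Of the 12 genes, 6 had 0 counts in both WT libraries, and 10 were higher in OXAITF1 replicate 1.

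Among 7 conjugating and other metabolic enzymes, UGT76B1, which glucosylates salicylic acid and N-hydroxypipecolic acid, had 228 and 24 counts in OXAITF1 leaves, against 1 and 0 in WT leaves. GLYI7, a glyoxalase I family protein, had 44 and 353 counts in OXAITF1 leaves, against 3 and 0 in WT leaves, a ratio of 86.3 (29.3 to 420). The OXAITF1 replicates of UGT76B1 and GLYI7 thus stood far apart in opposite directions. BRU6, a GH3 enzyme that joins auxin to amino acids, had 30 and 39 counts in OXAITF1 leaves, against 1 and 1 in WT leaves. CCOAMT, annotated as a caffeoyl-CoA O-methyltransferase, had 55 and 138 counts in OXAITF1 leaves, against 2 and 2 in WT leaves.

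The 5 receptor proteins and kinases had low levels. FRK1, the flg22-induced receptor-like kinase widely read out in pattern-triggered immunity, had 122 and 95 counts in OXAITF1 leaves, against 1 and 0 in WT leaves. The kinase-like AT3G46280 had 40 and 70 counts in OXAITF1 leaves, against 1 and 0 in WT leaves, and the lectin receptor kinase LECRKA4.2 had 28 and 59 in OXAITF1 leaves, against 1 and 2 in WT leaves. RLP7, a receptor-like protein, had 43 and 34 counts in OXAITF1 leaves, against 0 and 2 in WT leaves. After TMM scaling the OXAITF1 replicates of LECRKA4.2 were 1.99-fold apart, and those of the other receptor genes named here less.

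Transcription factors and the MIR172a precursor made up 15 members, with mean OXAITF1 levels between 0.992 and 3.51 CPM. LBD1, a LOB domain factor, had 118 and 28 counts in OXAITF1 leaves, against 0 and 0 in WT leaves, and was at least 31.7-fold higher. Rap2.6L, an ERF factor, had 76 and 66 counts in OXAITF1 leaves, against 1 and 2 in WT leaves. PHE1, a MADS-box gene known from the endosperm, had 38 and 55 counts in OXAITF1 leaves, against 1 and 1 in WT leaves.

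The remaining members were 6 cell wall proteins, 6 hydrolases, proteases and inhibitors, 5 ubiquitin and RING proteins, 4 ATPases and DNA repair proteins, 3 small secreted or signalling peptides, and 30 of other or unknown function. CSLG2, a cellulose synthase-like protein, had 389 and 96 counts in OXAITF1 leaves, against 0 and 2 in WT leaves. The non-coding RNA AT3G61198 had 78 and 276 counts in OXAITF1 leaves, against 0 and 0 in WT leaves, and was at least 77.0-fold higher. PYK10, the major beta-glucosidase of root ER bodies, had 28 and 39 counts in OXAITF1 leaves, against 0 and 3 in WT leaves. HCHIB, a basic chitinase, had 85 and 27 counts in OXAITF1 leaves, against 2 and 2 in WT leaves.

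FRK1, UMAMIT33, AAP3, AT3G13610, AT5G39520, AT5G25450, HCHIB and PYK10 each overlap a gene on the opposite strand, and the strand setting of the counting is not known. The partner of UMAMIT33, TET7, had 384 and 415 counts in OXAITF1 leaves, against 414 and 413 in WT leaves, where UMAMIT33 had 0 and 0. SGR4, the partner of AT5G39520, had 1265 and 1222 counts in OXAITF1 leaves, against 1032 and 959 in WT leaves, where AT5G39520 had 1 and 0. AT2G19180, the partner of FRK1, had 448 and 574 counts in OXAITF1 leaves, against 283 and 286 in WT leaves, where FRK1 had 1 and 0. In WT leaves these 3 partners thus had at least 283 counts per library beside at most 1 in the member. AT1G77370, the partner of AAP3, had 774 and 736 counts in OXAITF1 leaves, against 278 and 302 in WT leaves. PUT4, the partner of AT3G13610, had 203 and 94 in OXAITF1 leaves, against 70 and 80 in WT leaves. AT5G25451, a partner of AT5G25450, had 7 and 9 in OXAITF1 leaves, against 0 and 0 in WT leaves. AT3G09250, the partner of PYK10, had 511 and 469 in OXAITF1 leaves, against 343 and 481 in WT leaves. Whether partner reads were counted to members was not tested.

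The OXAITF1 replicates did not carry the set in the same proportions, although its summed level was nearly equal in both. Of the 101 members, 55 were higher in replicate 1 and 46 in replicate 2. Over 2-fold differences were found in 20 members towards replicate 1 and in 12 towards replicate 2. This was 31.7% of the set, against 9.05% of the 17233 leaf genes with at least 20 counts in each OXAITF1 library. The shares were not matched for expression level, on which the counting error of a ratio depends. Between the WT replicates 1.66% of genes with at least 20 counts in each were over 2-fold apart. The widest gaps were UGT76B1, 10.0-fold higher in replicate 1, DR4, 9.51-fold higher in replicate 1, and GLYI7, 7.59-fold higher in replicate 2.

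**Figure D2:**
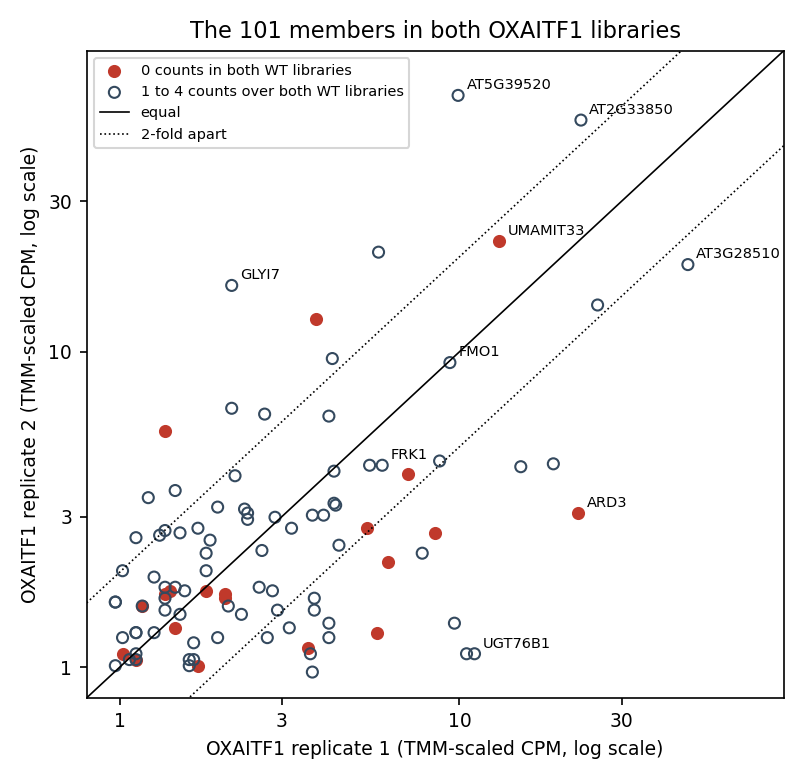
Level of the 101 members in OXAITF1 replicate 1 (horizontal) and replicate 2 (vertical), in TMM-scaled CPM on log axes. Filled points had 0 counts in both WT libraries and open points 1 to 4, the solid line marks equal levels and the dotted lines a 2-fold difference, which 32 members exceed (20 towards replicate 1 and 12 towards replicate 2).

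Cell type markers were set beside these values, since members such as PYK10 belong to other organs. The summed level of 6 mesophyll markers was 11824 and 13276 CPM in OXAITF1 leaves, against 49441 and 50633 CPM in WT leaves, and 5 of the 6 fell in the edgeR leaf comparison. Of 13 root markers, 8 and 7 were at 0 in the OXAITF1 libraries, against 11 and 12 in the WT libraries, and their sum, PYK10 included, was 2.19 and 4.05 CPM in OXAITF1 leaves, against 0.149 and 0.211 CPM in WT leaves. PYK10, a member and thus chosen by these leaf counts, made up 1.36 and 1.79 CPM of this sum in OXAITF1 leaves, against 0 and 0.211 CPM in WT leaves. Among the root markers, RHD6, RSL4, EXPA7, EXPA18 and LRX1 were at 0 in all 4 leaf libraries. Low counts were found for PRP3 at 3 and 12 in OXAITF1 leaves, against 0 and 0 in WT leaves, and for COBL9 at 0 and 4 in OXAITF1 leaves, against 0 and 0 in WT leaves. The Casparian strip genes CASP1, CASP2 and CASP4 had 2 to 20 counts per OXAITF1 library, against 0 or 1 per WT library. The sum of 8 flower markers was 0.972 and 0.874 CPM in OXAITF1 leaves, against 0.672 and 0.773 CPM in WT leaves, and that of 7 pollen markers was 2.48 and 1.75 CPM in OXAITF1 leaves, against 2.99 and 2.74 CPM in WT leaves. The sum of 13 seed markers was 0.874 and 0.506 CPM in OXAITF1 leaves, against 1.34 and 1.69 CPM in WT leaves. Guard cell markers summed to 66.7 and 64.7 CPM in OXAITF1 leaves, against 91.8 and 93.3 CPM in WT leaves. Of the 6 guard cell markers tested, 0 were called higher and 1, ALMT12, was called lower. Xylem markers summed to 75.0 and 71.0 CPM in OXAITF1 leaves, against 66.1 and 44.7 CPM in WT leaves. They did not move together, since of the 5 tested 0 were called higher and 1 lower. The lower one was XCP1, with 3.93 and 3.95 CPM in OXAITF1 leaves, against 13.7 and 8.30 CPM in WT leaves. All these sums depend on the TMM scaling. The median log2 difference of all tested leaf genes was 0.05 with it and 0.46 with library totals alone. The part of the marker shifts in the members' levels was not tested.

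Lists of pathway genes were also read in these leaves, on genes outside the set. The lists were chosen with earlier results of these data known, so their counts are a description and not independent support. Of all 18639 leaf genes tested, 9.36% were called higher and 10.4% lower in OXAITF1 at an adjusted p under 0.05 by edgeR's quasi-likelihood test. FMO1 and UGT76B1 belong to a list of 27 salicylic acid and systemic acquired resistance genes. Of its 25 other genes, 14 rose and 0 fell, with a median log2 difference of 1.40. PR2, a glucanase, had 5469 and 3369 counts in OXAITF1 leaves, against 244 and 408 in WT leaves, a log2 difference of 3.16 (SE 0.39, adjusted p = 0.0173). PNP-A, a small secreted protein, had 824 and 793 counts in OXAITF1 leaves, against 47 and 33 in WT leaves, a log2 difference of 3.71 (SE 0.25, adjusted p = 0.0141). DLO1, a salicylic acid hydroxylase, and PR1 also rose, PR1 with 2387 and 225 counts in OXAITF1 leaves, against 5 and 2 in WT leaves.

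Starvation and amino acid breakdown genes moved as well. None of this list's 26 genes is a member, and of the 25 tested 13 rose and 1 fell, with a median log2 difference of 1.82. DIN1 had 11923 and 27830 counts in OXAITF1 leaves, against 258 and 207 in WT leaves, and ASN1, an asparagine synthetase, had 6363 and 13361 in OXAITF1 leaves, against 481 and 198 in WT leaves. Of 21 leaf senescence genes tested outside the set 8 rose and 0 fell, with a median of 1.21, among them SAG13, SAG21, NAC019 and the phosphatase HAI1. Of 23 early pattern-triggered genes outside the set, whose list includes FRK1, NHL10 rose and WRKY11 fell, and the median was -0.07. For these 4 lists no gene was called without WT replicate 1 or without WT replicate 2, where a single WT library remained, nor with a replicate block. Without OXAITF1 replicate 1, 22 starvation and 14 senescence genes were called, and without OXAITF1 replicate 2, 15 senescence genes (12 higher and 3 lower). The early pattern-triggered list turned with the library, with 9 higher and 3 lower (median 0.21) without OXAITF1 replicate 1, and 1 higher and 9 lower (median -0.61) without OXAITF1 replicate 2.

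In seedlings the same loci were mostly not silent. Each of the 101 was listed with reads in at least 1 seedling library, and 86 passed the filter on low counts. At 0 h, 68 members reached 1 CPM on average in the double mutant and 67 in WT, and 24 reached 10 CPM in each genotype. By 3 h, 73 reached 1 CPM in each genotype, and 32 in the double mutant and 34 in WT reached 10 CPM. PYK10 was at 920 to 1289 CPM in WT seedlings at 0 h and DR4, named as drought-repressed, at 443 to 688 CPM. The sum of the 13 root markers in seedlings was 891 to 1793 CPM, PYK10 included. In WT at 0 h this sum was 985 to 1415 CPM, most of it PYK10. Leaf and seedling counts were scaled apart, so their levels are not compared as folds.

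The other 15 members had 10 to 112 counts over the 18 seedling libraries together and were not tested. ARD3, AT3G28510 and CSLG2, 3 of the 12 highest members in OXAITF1 leaves, were among them with 16, 40 and 10 counts in all. PHE1 had 64, the factor DREB19 112, the late embryogenesis protein AtLEA4-1 74 and the NAD(P)H dehydrogenase NDB4 14. These members were near silent in WT leaves and in seedlings of both genotypes.

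After 1 h more members rose than fell. In the double mutant 26 of 86 rose and 10 fell, against a background over all 21028 genes of 20.3% higher and 19.2% lower. In WT 39 of 86 rose and 10 fell, against a background of 25.2% higher and 23.0% lower, 48.2% in all. The members' shares were 30.2% higher and 11.6% lower in the double mutant and 45.3% higher and 11.6% lower in WT. The median log2 change was 0.37 in the double mutant and 0.49 in WT, while that of all genes was 0.04 in the double mutant and 0.05 in WT. After 3 h, 25 rose and 1 fell in the double mutant, where the background was 13.2% higher and 6.25% lower, 19.5% in all, and 31 rose and 6 fell in WT, where it was 15.4% higher and 11.1% lower. The median log2 change at 3 h was 0.27 in the double mutant and 0.42 in WT, against -0.01 for all genes in the double mutant and 0.00 in WT. The comparisons at 1 h and at 3 h share their 0 h libraries. Without replicate 3 at 3 h, the double mutant had 16 members higher and 1 lower at 3 h.

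**Figure D3:**
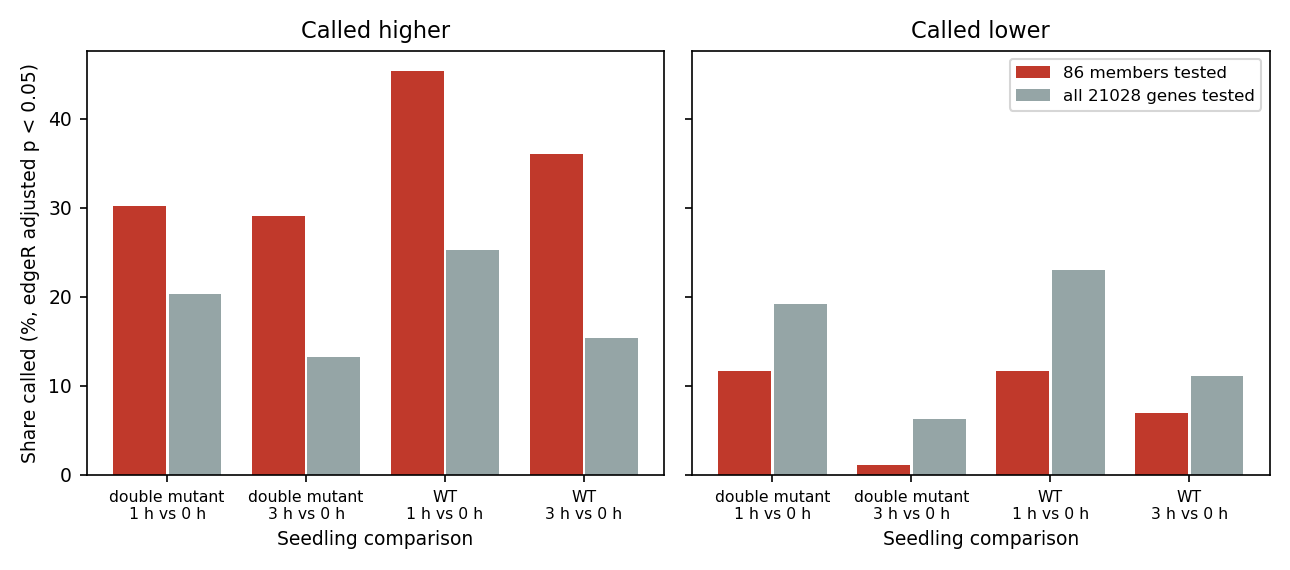
Share of members (red, 86 tested) and of all tested genes (grey, 21028) called higher (left) and lower (right) than at 0 h by edgeR at an adjusted p under 0.05, in the double mutant and in WT. The members' bars stand above the grey bars for higher calls, 30.2% against 20.3% in the double mutant and 45.3% against 25.2% in WT at 1 h, and below them for lower calls.

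Of the role groups, the 5 receptor and kinase members had the highest median log2 change at 1 h and at 3 h in both genotypes. Single members of other groups could change more, such as PHT3;2 at 1 h in WT. FRK1 measured 1.52, 5.61 and 5.26 CPM at 0 h, 29.4, 59.7 and 101 CPM at 1 h, and 210, 211 and 500 CPM at 3 h in the double mutant. In WT it measured 1.54, 3.11 and 18 CPM at 0 h, 62.4, 57.0 and 206 CPM at 1 h, and 235, 259 and 396 CPM at 3 h. In both genotypes no library at 1 h overlapped the 0 h libraries, and every 3 h library lay above every 1 h library. The log2 change at 3 h was 6.18 (SE 0.84, adjusted p = 6.48e-05) in the double mutant and 5.29 (SE 0.79, adjusted p = 0.000161) in WT. The kinase-like AT3G46280 measured 43.3, 69.6 and 52.9 CPM at 0 h, 207, 256 and 286 CPM at 1 h, and 465, 455 and 720 CPM at 3 h in the double mutant. WT seedlings had 40.4, 66.9 and 113 CPM at 0 h, 294, 256 and 398 CPM at 1 h, and 395, 610 and 648 CPM at 3 h. Its log2 change at 3 h was 3.30 (SE 0.33, adjusted p = 3.6e-06) in the double mutant and 2.91 (SE 0.33, adjusted p = 1.1e-05) in WT.

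LECRKA4.2 rose at 1 h by log2 3.10 (SE 0.47, adjusted p = 8.03e-05) in the double mutant and 3.56 (SE 0.45, adjusted p = 1.06e-05) in WT. RLP7 rose at 1 h by log2 2.11 (SE 0.44, adjusted p = 0.00125) in the double mutant and 2.17 (SE 0.43, adjusted p = 0.000621) in WT. Thus 4 of the 5 receptor and kinase members rose at 1 h and at 3 h in each genotype, the exception being the kinase AT4G31230. The background of higher calls was 20.3% at 1 h and 13.2% at 3 h in the double mutant, and 25.2% and 15.4% in WT. The 3 h call of RLP7 in the double mutant was lost without replicate 2 at 0 h (adjusted p = 0.0518), without replicate 3 at 0 h (adjusted p = 0.078) and without replicate 3 at 3 h (adjusted p = 0.0753).

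**Figure D4:**
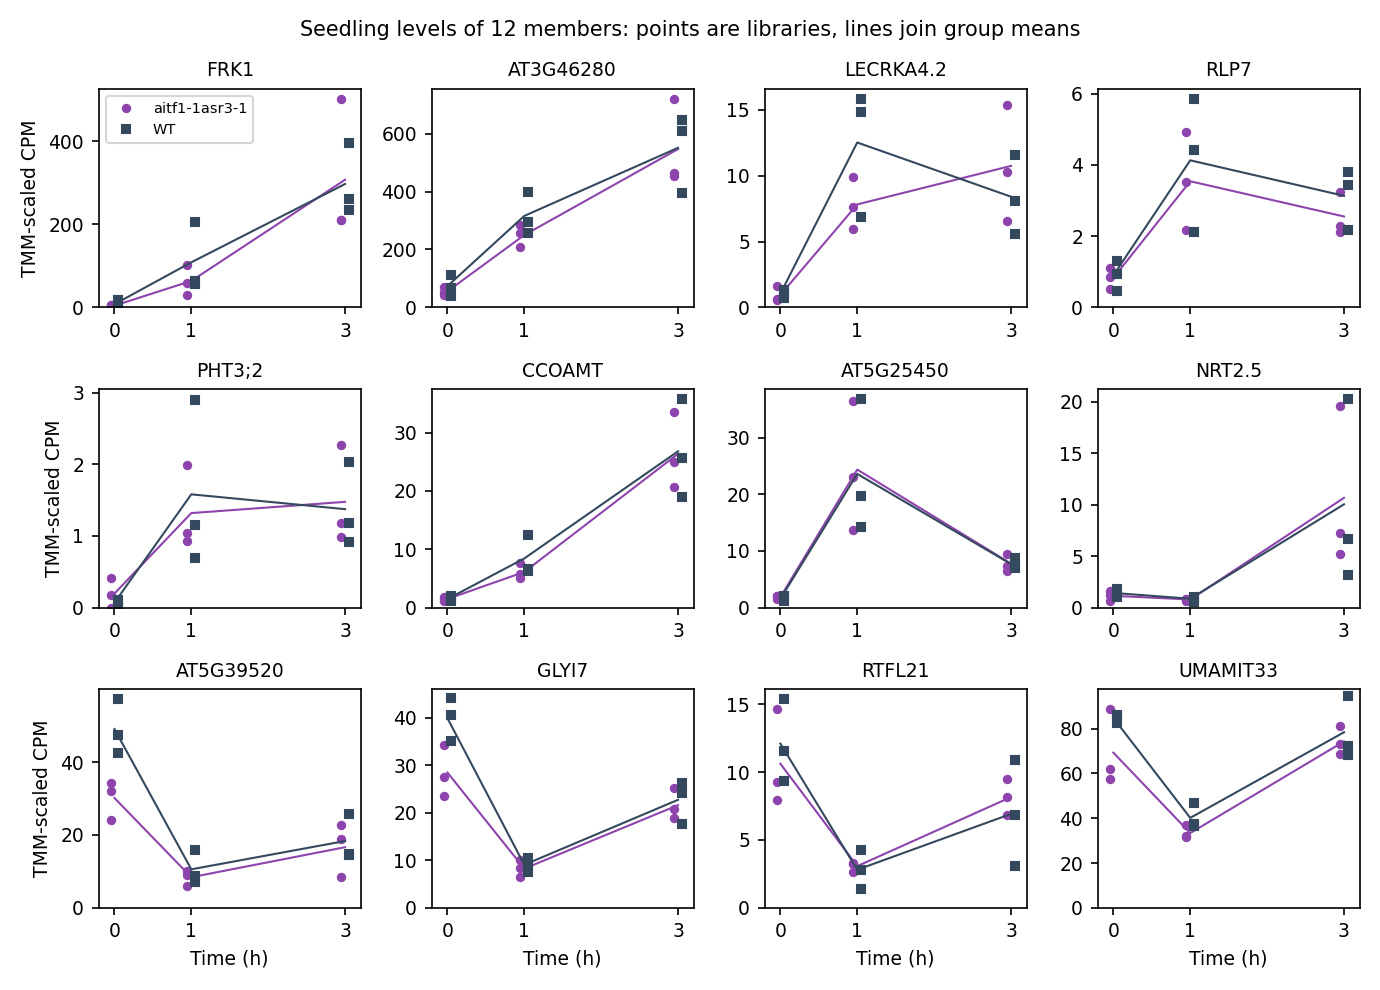
TMM-scaled CPM of 12 members at 0, 1 and 3 h in seedlings of the double mutant (circles) and WT (squares), 3 libraries per genotype and time, with lines through the group means. The 4 receptor genes, PHT3;2, CCOAMT and AT5G25450 rise by 1 h and NRT2.5 by 3 h, while AT5G39520, GLYI7, RTFL21 and UMAMIT33 are lowest at 1 h.

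Of the 8 transporters, 5 rose at 3 h in the double mutant and 6 in WT, against a background of 13.2% and 15.4%. NRT2.5 measured 1.58, 0.623 and 1.23 CPM at 0 h, 0.620, 0.882 and 0.867 CPM at 1 h, and 7.20, 5.24 and 19.6 CPM at 3 h in the double mutant. In WT it measured 1.43, 1.04 and 1.82 CPM at 0 h, 0.575, 0.966 and 1.04 CPM at 1 h, and 3.16, 6.71 and 20.2 CPM at 3 h. NRT2.5 was thus late, with no library above 2 CPM before 3 h, and replicate 3 was highest at 3 h in both genotypes. Its log2 change at 3 h was 3.23 (SE 0.63, adjusted p = 0.00162) in the double mutant and 2.81 (SE 0.61, adjusted p = 0.00321) in WT. Against 1 h it rose by log2 3.74 (SE 0.66, adjusted p = 0.00088) in the double mutant and 3.54 (SE 0.65, adjusted p = 0.00108) in WT. A stretch of 164 bases of its transcript is 95.1% identical to AT4G14358, so its reads may be shared.

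PHT3;2 had the highest change at 1 h in WT but on few reads, with 0.410, 0.178 and 0 CPM at 0 h and 0.930, 1.04 and 1.99 CPM at 1 h in the double mutant. In WT it had 0, 0.0988 and 0.104 CPM at 0 h and 1.15, 0.690 and 2.90 CPM at 1 h. The log2 change at 1 h was 2.80 (SE 0.76, adjusted p = 0.00766) in the double mutant and 4.35 (SE 0.89, adjusted p = 0.000783) in WT. Its 3 h call in the double mutant was lost without replicate 3 at 3 h (adjusted p = 0.055). ATGLR1.2 rose at 1 h by log2 1.65 (SE 0.47, adjusted p = 0.0108) in the double mutant and 2.48 (SE 0.46, adjusted p = 0.000329) in WT. AAP3 rose at 1 h by log2 0.72 (SE 0.16, adjusted p = 0.00179) in the double mutant and 0.70 (SE 0.16, adjusted p = 0.0016) in WT.

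UMAMIT33 went the other way. It measured 88.6, 61.9 and 57.4 CPM at 0 h, 31.5, 36.8 and 31.9 CPM at 1 h, and 68.5, 73.3 and 81.1 CPM at 3 h in the double mutant. WT seedlings had 86.3, 85.5 and 82.5 CPM at 0 h, 37.2, 46.7 and 36.6 CPM at 1 h, and 94.3, 68.4 and 72.3 CPM at 3 h. Every 1 h library lay below every library of the other times in its genotype. The change at 1 h was log2 -1.05 (SE 0.15, adjusted p = 5.57e-05) in the double mutant and log2 -1.08 (SE 0.15, adjusted p = 2.77e-05) in WT.

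Among the oxidoreductases, AT5G25450, annotated as a subunit of a ubiquinol oxidase, peaked at 1 h. It measured 2.05, 2.00 and 1.47 CPM at 0 h, 13.6, 23.0 and 36.5 CPM at 1 h, and 7.44, 6.38 and 9.46 CPM at 3 h in the double mutant. In WT it measured 1.49, 1.19 and 1.97 CPM at 0 h, 14.3, 19.8 and 36.8 CPM at 1 h, and 7.43, 8.70 and 6.94 CPM at 3 h. The 3 times did not overlap in either genotype. The log2 change at 1 h was 3.73 (SE 0.39, adjusted p = 2.59e-06) in the double mutant and 3.92 (SE 0.40, adjusted p = 1.41e-06) in WT, and at 3 h against 1 h it was -1.65 (SE 0.33, adjusted p = 0.00218) in the double mutant and -1.61 (SE 0.34, adjusted p = 0.00251) in WT. The genes AT5G03975 and AT5G25451 overlap AT5G25450 on the opposite strand.

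FMO1 measured 1.17, 1.07 and 1.19 CPM at 0 h, 3.41, 4.0 and 3.67 CPM at 1 h, and 2.40, 1.87 and 2.03 CPM at 3 h in the double mutant. WT seedlings had 0.744, 1.43 and 1.61 CPM at 0 h, 4.45, 2.80 and 4.60 CPM at 1 h, and 3.48, 3.41 and 4.28 CPM at 3 h. All 1 h libraries lay above all 0 h libraries in both genotypes. The log2 change at 1 h was 1.69 (SE 0.25, adjusted p = 6.74e-05) in the double mutant and 1.63 (SE 0.25, adjusted p = 5.75e-05) in WT. The oxygenase AT3G13610 rose at 1 h by log2 1.23 (SE 0.21, adjusted p = 0.000272) in the double mutant and 1.89 (SE 0.22, adjusted p = 4.45e-06) in WT. YUC8 was not called at any time, with a log2 change at 3 h of 0.23 (SE 0.22, adjusted p = 0.518) in the double mutant and 0.63 (SE 0.23, adjusted p = 0.0508) in WT.

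Of the 7 conjugating and other metabolic enzymes, 4 rose and 1 fell at 1 h in each genotype. The background was 20.3% higher and 19.2% lower in the double mutant, and 25.2% and 23.0% in WT. CCOAMT measured 1.17, 1.82 and 1.42 CPM at 0 h, 5.73, 7.58 and 5.05 CPM at 1 h, and 24.9, 20.8 and 33.5 CPM at 3 h in the double mutant. In WT it measured 1.37, 1.93 and 1.09 CPM at 0 h, 6.66, 6.21 and 12.4 CPM at 1 h, and 19, 35.7 and 25.7 CPM at 3 h. Its 0, 1 and 3 h libraries did not overlap in either genotype, with a log2 change at 3 h of 4.14 (SE 0.33, adjusted p = 4.57e-07) in the double mutant and 4.18 (SE 0.34, adjusted p = 4.97e-07) in WT. BRU6 rose at 3 h by log2 1.51 (SE 0.16, adjusted p = 6.14e-06) in the double mutant and 1.81 (SE 0.16, adjusted p = 1.36e-06) in WT. UGT76B1 rose at 1 h in WT by log2 1.15 (SE 0.27, adjusted p = 0.00234). Its 1 h change in the double mutant was 0.81 (SE 0.27, adjusted p = 0.0252), a call lost without replicate 3 at 0 h (adjusted p = 0.122), without replicate 1 at 1 h (adjusted p = 0.0676) and without replicate 2 at 1 h (adjusted p = 0.0671).

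GLYI7 was the member that fell. It measured 34.3, 23.6 and 27.6 CPM at 0 h, 10.0, 8.31 and 6.42 CPM at 1 h, and 18.8, 20.9 and 25.1 CPM at 3 h in the double mutant. WT seedlings had 35.2, 40.5 and 44.1 CPM at 0 h, 9.05, 10.6 and 7.55 CPM at 1 h, and 26.4, 17.6 and 24.2 CPM at 3 h. The 1 h libraries were below all others in both genotypes. The log2 change at 1 h was -1.78 (SE 0.19, adjusted p = 3.46e-06) in the double mutant and -2.14 (SE 0.19, adjusted p = 4.05e-07) in WT.

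AT5G39520, with a mean of 37.4 CPM in OXAITF1 leaves, also fell in seedlings. It measured 32.1, 24.2 and 34.1 CPM at 0 h, 5.94, 10.2 and 9.02 CPM at 1 h, and 8.33, 18.8 and 22.8 CPM at 3 h in the double mutant. In WT it measured 47.3, 42.6 and 57.4 CPM at 0 h, 6.99, 15.9 and 8.81 CPM at 1 h, and 25.8, 14.7 and 14.5 CPM at 3 h. Within each genotype, every 0 h library lay above every later one. The log2 change at 1 h was -1.84 (SE 0.35, adjusted p = 0.00062) in the double mutant and -2.21 (SE 0.35, adjusted p = 7.54e-05) in WT. RTFL21, a small signalling peptide of the ROTUNDIFOLIA family, fell at 1 h by log2 -1.78 (SE 0.40, adjusted p = 0.00206) in the double mutant and -2.08 (SE 0.40, adjusted p = 0.000426) in WT. The RING protein AT3G20395 fell at 1 h by log2 -1.70 (SE 0.46, adjusted p = 0.00642) in WT. Its change in the double mutant was -1.69 (SE 0.49, adjusted p = 0.0111), a call lost without replicate 3 at 0 h (adjusted p = 0.0675).

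Lower calls at 3 h were few. The non-coding RNA AT3G61198 was the 1 member lower at 3 h in the double mutant, by log2 -0.67 (SE 0.15, adjusted p = 0.00499), and it fell in WT by log2 -0.99 (SE 0.15, adjusted p = 0.00024). In WT, AT5G39520, GLYI7 and the unannotated protein AT5G57785 also fell at 3 h, the last by log2 -1.23 (SE 0.31, adjusted p = 0.00816). The GMC oxidoreductase AT1G12570 and the desaturase ADS4 were called lower in WT at 3 h by log2 -2.47 and -1.19 on levels under 1.3 CPM. The AT1G12570 call was lost without replicate 1 or 2 at 0 h or any replicate at 3 h (adjusted p = 0.0572 to 0.14). The ADS4 call was lost without replicate 1 or 2 at 0 h or replicate 1 or 3 at 3 h (adjusted p = 0.0638 to 0.176). AT3G60470, called higher in WT at both times on at most 0.991 CPM, lost its 1 h call without replicate 1 or 2 at 0 h or at 1 h (adjusted p = 0.0638 to 0.0872). Its 3 h call was lost without replicate 1 or 2 at 0 h or replicate 3 at 3 h (adjusted p = 0.0961 to 0.22).

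Of 13 transcription factors and regulatory RNAs tested, 2 rose at 1 h in the double mutant and 6 in WT, and 4 rose at 3 h in each genotype, with 0 lower. Of all genes, 20.3% rose at 1 h and 13.2% at 3 h in the double mutant, and 25.2% and 15.4% in WT. The bHLH factor AT2G43140 rose at 1 h by log2 1.5 (SE 0.21, adjusted p = 5.11e-05) in the double mutant and 1.73 (SE 0.22, adjusted p = 9.38e-06) in WT. Rap2.6L rose at 3 h by log2 1.51 (SE 0.20, adjusted p = 6.17e-05) in the double mutant and 1.40 (SE 0.20, adjusted p = 0.000109) in WT. The homeobox factor HB21 rose at 3 h by log2 2.51 (SE 0.42, adjusted p = 0.000449) in the double mutant and 1.42 (SE 0.34, adjusted p = 0.00573) in WT, where the call was lost when the compared libraries alone were fitted (adjusted p = 0.0575). MIR172a was at 0.626 to 1.95 CPM in all seedling libraries and was not called, with a log2 change at 1 h of 0.06 (SE 0.31, adjusted p = 0.899) in the double mutant and -0.46 (SE 0.31, adjusted p = 0.227) in WT. AT2G33850, with the highest OXAITF1 leaf level in CPM, was not called either, with log2 0.28 (SE 0.22, adjusted p = 0.343) in the double mutant and 0.18 (SE 0.22, adjusted p = 0.519) in WT at 1 h.

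Between 1 h and 3 h, 18 members rose and 7 fell in the double mutant, against a background of 13.8% and 12.2%, and 13 rose and 5 fell in WT, against 12.9% and 11.8%. With library totals alone the double mutant had 13 higher and 9 lower. The median log2 change was -0.03 in each genotype and -0.02 for all genes. NRT2.5, CCOAMT, GLYI7, UMAMIT33 and BRU6 rose over this interval in both genotypes. Without replicate 3 at 3 h the double mutant had 11 higher and 4 lower, and without replicate 1 at 1 h WT had 9 higher and 2 lower.

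The double mutant and WT courses share no library, so their calls could be set side by side. At 1 h, 25 members rose in both genotypes, 96.2% of the 26 in the double mutant and 64.1% of the 39 in WT. Over all tested genes, the shares were 89.1% of the higher calls in the double mutant and 71.7% of those in WT. Likewise 8 members fell in both, 80.0% of the 10 in each, where all genes had 89.8% in the double mutant and 75.1% in WT. At 3 h, 24 rose in both, 96.0% of the 25 in the double mutant and 77.4% of the 31 in WT, where all genes had 80.9% in the double mutant and 69.5% in WT. A call in one genotype and not in the other does not show a difference between them.

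**Figure D5:**
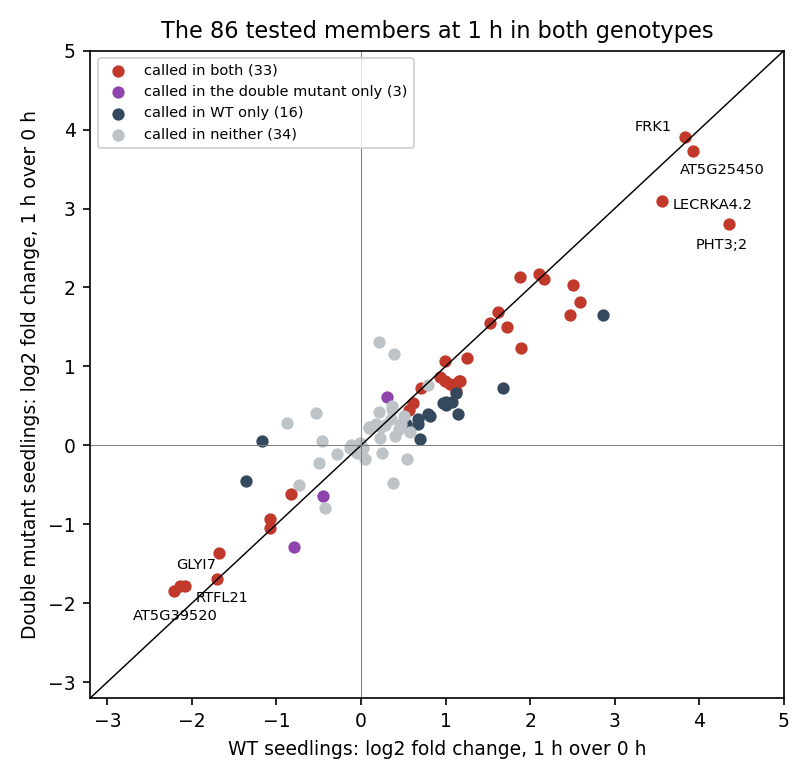
Log2 fold change at 1 h over 0 h of the 86 tested members in the double mutant (vertical) and WT (horizontal), with the line of equal change. Of these, 33 were called in both genotypes, 3 in the double mutant alone, 16 in WT alone and 34 in neither, and FRK1 had 3.91 in the double mutant and 3.83 in WT.

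That difference was tested directly. The genotype by time interaction called 0 of 86 members at 1 h and 0 at 3 h by edgeR, against 0.0% of all genes called at both times. At an unadjusted p under 0.05 there were 3 and 5 members, and the share of all genes at that limit was not taken. For FRK1 the interaction was log2 0.08 (SE 1.04) at 1 h and 0.89 (SE 1.04, adjusted p = 0.996) at 3 h. The double mutant against WT at 0, 1 and 3 h also gave 0 called members, against 0.357%, 0.262% and 0.276% of all genes called in either direction. Of all genes, 0.295% were called higher and 0.0618% lower in the double mutant at 0 h, 0.195% and 0.0666% at 1 h, and 0.224% and 0.0523% at 3 h. At an unadjusted p under 0.05 there were 10, 5 and 7 of the 86 members, again without a share of all genes at that limit. DESeq2 called 0 as well in these 5 comparisons. The lowest adjusted p at 3 h was that of FMO1, log2 -0.82 (SE 0.23, adjusted p = 0.328), with 2.40, 1.87 and 2.03 CPM in the double mutant and 3.48, 3.41 and 4.28 CPM in WT. At 0 h it was that of HB21, log2 -1.62 (SE 0.46, adjusted p = 0.365). These FMO1 and HB21 groups did not overlap, yet neither passed the threshold over all genes, and a p that misses the threshold does not show that the genotypes acted alike.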

How the data were processed

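Per the submitters' processing notes, the authors mapped reads with HISAT2 2.1.0 to TAIR10 and counted them with featureCounts (Subread 1.6.5). Strand, multi-mapping and annotation release were not given in the sources used here. The deposited values are whole-number counts, not normalized, in a leaf table and a seedling table. From these counts, edgeR 4.0.16 (R 4.3.3, limma 3.58.1) was run on each whole table, with filterByExpr (minimum count 10), TMM scaling, the quasi-likelihood test and Benjamini-Hochberg adjustment over all genes. Calls are those with an adjusted p under 0.05. The 18 seedling libraries were fitted together and the 4 leaf libraries alone. CPM is TMM-scaled, and SEs were derived from the F statistics. Alternatives were DESeq2 1.42.0, other scalings and filters, a replicate block, the compared libraries alone and leaving out each library. The fits were tested on simulated data. Replicate pairs differed beyond sampling noise, with chi-square values divided by their degrees of freedom between 6.76 and 72.3.

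The members and lists were chosen with earlier results of these data known. The rule for named genes took the 12 highest members in OXAITF1 leaves, up to 3 per role, the 4 highest and 4 lowest called per seedling comparison, genes at the limits, AT3G11100 and ASR3, and up to 4 called genes per list. Not every gene the rule named is described. Members described outside it were chosen after their values were seen: RLP7, YUC8, PYK10, AAP3, ATGLR1.2, BRU6, HB21, PHE1, AT2G43140, AT4G31230, AT2G45360, GSTU8, and those named for low seedling counts or near copies.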

Additional observations from a re-analysis of the deposited data

How the results depend on the processing

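Of 191 calls of a member in a seedling comparison, 119 held under every alternative run and 72 were lost under at least 1, and 0 of 2463 values changed sign. The genotype and interaction comparisons gave 0 called members under every alternative. Other than without single libraries, counts of called members stayed within 1.5 times of the reported one, except between 3 h and 1 h in WT (18, but 11 with the compared libraries alone). Leaving out single libraries gave 26 to 34 for the double mutant at 1 h (reported 36), 17 to 23 at 3 h (26) and 15 to 21 between 3 h and 1 h (25). For WT it gave 37 to 46 at 1 h (49), 28 to 39 at 3 h (37) and 11 to 18 between 3 h and 1 h (18). Leaf list calls were 0 to 18 for salicylic acid (14), 0 to 15 for senescence (8), 0 to 22 for starvation (14) and 0 to 12 for early pattern-triggered genes (2) without single libraries. With library totals alone they were 21 for salicylic acid, 13 for senescence, 21 for starvation and 6 for early pattern-triggered genes. With DESeq2 they were 16, 12, 17 and 5 in the same order. Same-numbered seedling libraries deviated together in part, with a median r of 0.113 (lowest -0.293), against -0.065 for libraries of other numbers. Of 18 libraries, 14 were most alike to one of their own number. The labels do not say what a replicate number shares, so the main fit had no replicate block. With the replicate block the 4 leaf lists had 0 calls each, and the seedling counts were 35, 27 and 23 in the double mutant and 50, 38 and 21 in WT for 1 h against 0 h, 3 h against 0 h and 3 h against 1 h. The causes of these shifts were not tested. At the depth of these libraries 1 count is 0.0445 to 0.0747 CPM, which limits the 15 members not tested in seedlings.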

Other observations

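Of the 101 members, 26 overlap another annotated gene, 22 of them one on the opposite strand. The strand setting of the counting is not known. Besides the partners TET7, SGR4 and AT2G19180, whose leaf counts were high in WT beside near-silent members, some partners were low in WT as well. AT1G79890, annotated as a RAD3-like helicase, had 180 and 98 counts in OXAITF1 leaves, against 1 and 1 in WT leaves, and its opposite-strand partner BAC2, a mitochondrial carrier of basic amino acids, had 148 and 91 in OXAITF1 leaves, against 4 and 4 in WT leaves. By contrast, AT2G45360 had 21 and 24 counts in OXAITF1 leaves, against 0 and 0 in WT leaves, and its partner AT2G45380 had 1947 and 1673 in OXAITF1 leaves, against 467 and 539 in WT leaves. Besides NRT2.5, AT1G31570, AT2G01008 and AT4G31351 have stretches of at least 150 bases that are at least 95% identical to another transcript.

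The members had fewer exons than the leaf table as a whole, with a median of 2 against 4, and 25.7% had a single exon, against 18.4%. Chromosomes 1 to 5 held 32, 14, 27, 11 and 17 members. These were 31.7%, 13.9%, 26.7%, 10.9% and 16.8% of the set, against 26.0%, 15.5%, 19.7%, 15.1% and 22.7% of leaf genes. PYK10 and GSTU8 on chromosome 3 were the 1 pair of members within 20 kb of each other. GSTU8, a glutathione transferase, rose at 1 h in seedlings by log2 0.77 (SE 0.20, adjusted p = 0.0056) in the double mutant and 1.05 (SE 0.20, adjusted p = 0.000509) in WT. PYK10 was not called at 1 h.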
